A study of Arabidopsis thaliana with 18 samples.

Results

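The 44 genes described here encode proteins of the cytosolic ribosome of Arabidopsis thaliana. They were taken by locus identifier from the table of gene counts, 24 for the large subunit and 20 for the small subunit, out of 32832 genes in the table. They belong to 33 protein families, and a catalogue of 231 cytosolic ribosomal protein genes in 80 families gives their paralogs. All 44 passed the filter on low counts, as did 170 of the other 187 catalogue genes and 19679 genes in all.

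The cytosolic ribosome translates the mRNA of nuclear genes and is built from a small subunit, which reads the mRNA, and a large subunit, which joins amino acids. In Arabidopsis each of its proteins is encoded by a small family of related paralogs, and several mutants in single paralogs have pointed leaves, altered leaf polarity or arrested embryos. Synthesis of ribosomal proteins is a main use of energy in growing cells. In plants it is linked to the sugar-activated kinase TOR, which acts through S6 kinase on ribosomal protein S6.

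RNA came from whole 5-day-old seedlings of 2 genotypes, the myosin mutant atm1-1 and the wild type Col-0. Seedlings of each genotype grew on medium with 15 mM glucose, with 15 mM sucrose or with no added sugar (mock). The 6 groups had 3 libraries each, described by the submitters as biological replicates. atm1-1 is 1 allele with a T-DNA insertion in ATM1 (AT3G19960), a class VIII myosin, and no second allele was sequenced.

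The libraries held 9450790 to 20256309 counts on genes. QuantSeq 3′ libraries give reads from the end of each transcript, so counts per 1000000 counts of a library (CPM) can be compared between genes without division by length. ATM1 itself had 26.9 to 43.8 CPM in the 9 atm1-1 libraries and 26.2 to 43.9 CPM in the 9 Col-0 libraries. Reads at the end of ATM1 do not check the insertion, and genotypes are given as labelled. Libraries 2 of atm1-1 glucose and 3 of Col-0 sucrose stood apart in the balance of paralogs, as given with the shares below. Several results that turn on atm1-1 glucose library 2 are also given without it. Among markers of tissues, 3 of 4 genes of photosynthetic tissue fell with sugar over both genotypes, whereas 1 of 5 measured root genes and 1 of 5 genes of dividing cells rose. The root genes PLT1 and PLT2 did not pass the filter. In whole seedlings a change in the number of cells of a type and a change in RNA per cell cannot be told apart.

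The promoters of many ribosomal protein genes in plants hold site II elements, bound by TCP factors, and telo-boxes. Both were searched as exact letters on both strands of the 250 bases before each annotated gene start of TAIR10.1, as TGGGCC or TGGGCT for site II and AAACCCTA for the telo-box. A site II element was present in 29 of 44 members (65.9%), in 130 of 187 other catalogue genes (69.5%), in 13 of 37 plastid ribosomal protein genes (35.1%) and in 19.2% of 27443 protein-coding genes. The telo-box was present in 7 of 44 members (15.9%), in 24.1% of the other catalogue genes and in 4.49% of all. Members with both kinds were AT3G11940, AT3G49010 (BBC1), AT2G42740, AT5G27700 and AT5G15200. A match is a description of letters and not a bound site.

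The upstream sequences of the members called with sugar and of the S6 pair are shown because these genes come up in the sugar results below. A link between the motifs and the sugar response was not tested. They read 5′ to 3′ toward the gene start, with site II letters of either strand in capitals, from TAIR10.1 as annotated by RefSeq. The window of AT5G02870 is cut to the 110 bases that lie outside the neighbouring gene, and its full 250 bases held none of the motifs.
AT3G07110 (chr3:2251696-2251945, plus strand): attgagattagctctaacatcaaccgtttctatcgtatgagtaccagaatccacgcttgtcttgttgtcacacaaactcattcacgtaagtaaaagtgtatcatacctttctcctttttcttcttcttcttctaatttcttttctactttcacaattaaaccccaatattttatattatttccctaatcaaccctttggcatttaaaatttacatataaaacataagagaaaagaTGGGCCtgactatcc
AT5G02870 (chr5:657565-657674, plus strand): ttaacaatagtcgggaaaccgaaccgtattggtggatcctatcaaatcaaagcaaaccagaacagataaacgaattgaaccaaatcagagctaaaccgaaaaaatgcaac
AT4G31700 (chr4:15347805-15348054, minus strand): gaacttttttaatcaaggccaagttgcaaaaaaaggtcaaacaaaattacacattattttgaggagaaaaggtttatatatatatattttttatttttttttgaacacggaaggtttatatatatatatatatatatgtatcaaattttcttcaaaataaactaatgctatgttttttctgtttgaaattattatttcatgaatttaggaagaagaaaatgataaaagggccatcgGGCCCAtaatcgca
AT5G10360 (chr5:3260255-3260504, minus strand): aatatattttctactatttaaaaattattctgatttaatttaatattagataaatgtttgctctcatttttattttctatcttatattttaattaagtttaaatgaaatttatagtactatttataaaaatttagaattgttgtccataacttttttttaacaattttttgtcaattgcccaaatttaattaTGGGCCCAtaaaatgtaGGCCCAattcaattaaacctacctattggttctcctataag
AT3G07110 has 1 match close to its start and AT4G31700 has 1, while AT5G10360 has 3, of which 2 overlap as TGGGCCCA, a run that reads as site II on both strands.

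The members' levels spanned from 2.80 to 536 CPM on average over the 18 libraries, with a median of 169.8 CPM. Of the 44 genes, 40 lay between 20 and 600 CPM, and 4 lay under 10 CPM. The plot of levels in the 6 groups shows this range, and for most genes the 6 group means lay close together.

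**Figure D1:**
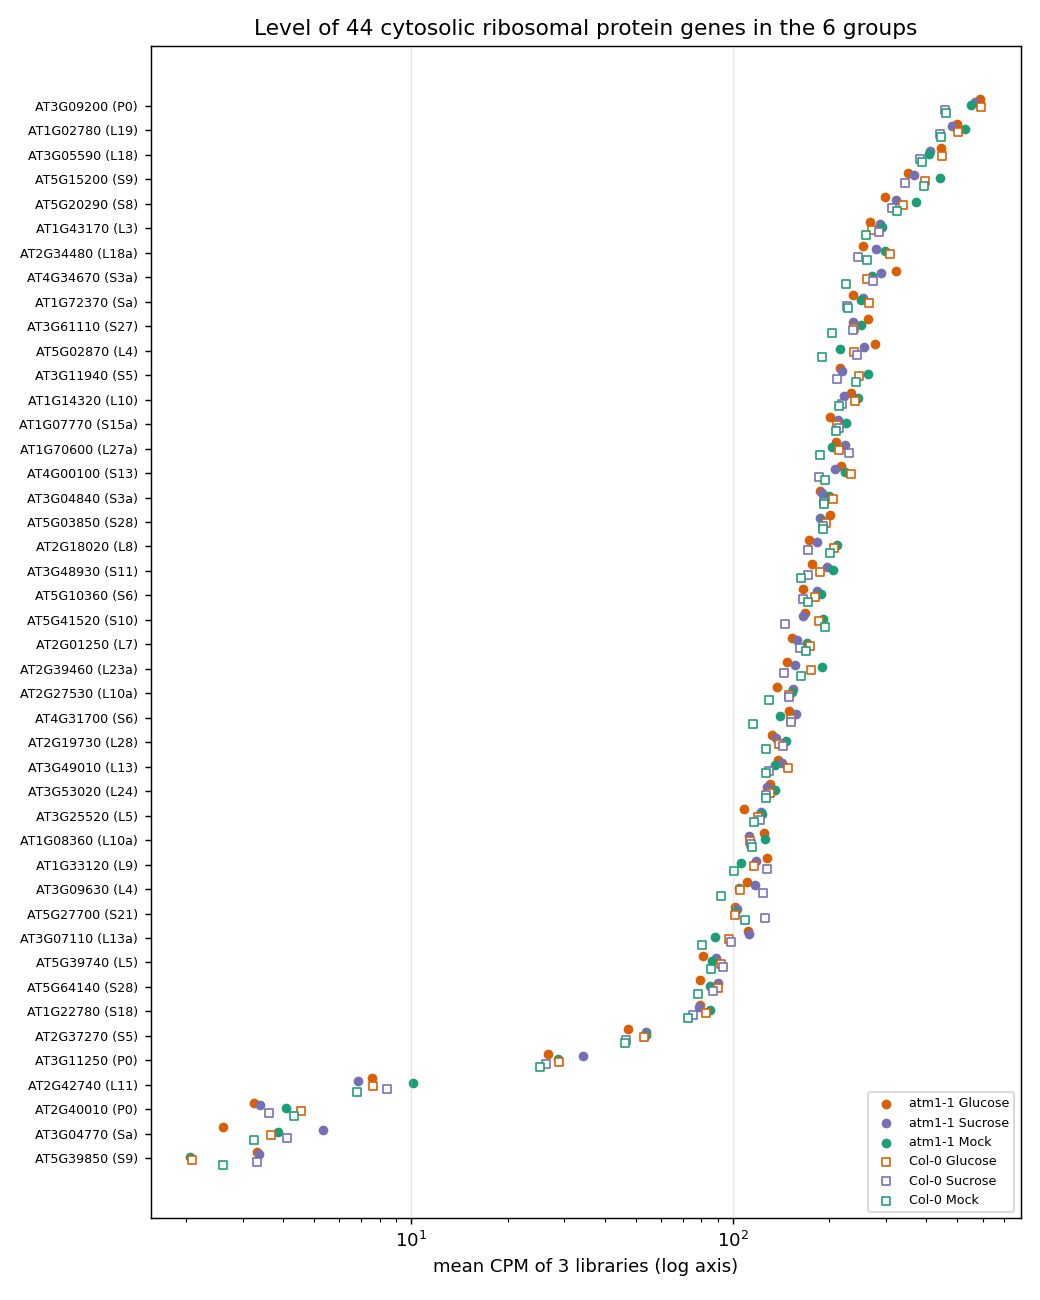
Mean CPM of 3 libraries (log axis) of each of the 44 genes, ordered by mean level, with filled circles for atm1-1 and open squares for Col-0 and 1 colour per treatment. The 6 group means of a gene sit close together next to the distance between the highest gene at 536 CPM and the lowest at 2.80 CPM.

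The most abundant member was AT3G09200, which encodes P0, the base of the acidic stalk that recruits elongation factors. AT3G09200 had 585, 659 and 521 CPM in atm1-1 glucose libraries and 509.5, 595 and 599.7 CPM in atm1-1 sucrose libraries, against 523, 506 and 627 CPM in atm1-1 mock libraries. The Col-0 libraries had 503, 752 and 520.2 CPM with glucose and 507, 485 and 376 CPM with sucrose, against 456, 369.6 and 559.9 CPM in mock libraries. Glucose libraries of Col-0 overlapped the mock libraries, since the third mock library at 559.9 CPM exceeded the first and the third glucose library. Next came AT1G02780 (emb2386), a gene of the L19 family. AT1G02780 had 466, 564 and 463 CPM in atm1-1 glucose libraries and 437, 545 and 464 CPM in atm1-1 sucrose libraries, against 520.0, 524 and 535 CPM in atm1-1 mock libraries. The 9 Col-0 libraries had 514, 484 and 513 CPM with glucose and 489, 429 and 408 CPM with sucrose, against 461, 405 and 471 CPM in mock libraries. Its mean was 483 CPM, and its highest value stood in the same atm1-1 glucose library 2 as several other extreme values below. The third was AT3G05590 (RPL18), with a mean of 414 CPM. AT3G05590 had 436, 469 and 431 CPM in atm1-1 glucose libraries and 346, 458 and 431 CPM in atm1-1 sucrose libraries, against 415, 354 and 459.6 CPM in atm1-1 mock libraries. Col-0 seedlings had 386, 496 and 464 CPM with glucose and 428, 388 and 329 CPM with sucrose, against 379.6, 345 and 439 CPM in mock libraries. Within each genotype the libraries of either sugar overlapped the mock libraries.

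The 3 least abundant members were minor copies of families whose main copy was also a member. Their values are given as raw counts, which are not scaled to the depth of a library. AT5G39850 had 22, 53 and 45 counts in atm1-1 glucose libraries and 108, 48 and 14 counts in atm1-1 sucrose libraries, against 25, 28 and 31 counts in atm1-1 mock libraries. Its values in Col-0 were 35, 14 and 24 counts with glucose and 24, 42 and 117 counts with sucrose, against 31, 34 and 34 counts in mock libraries, and its groups overlapped. AT5G39850 belongs to the S9 family, proteins of the small subunit body, and its mean was 2.80 CPM. AT3G04770 had 10, 36 and 49 counts in atm1-1 glucose libraries and 97, 70 and 69 counts in atm1-1 sucrose libraries, against 64, 54 and 45 counts in atm1-1 mock libraries. This gene, RPSAb, encodes a protein of the small subunit whose animal relative was first described as a laminin receptor precursor. The Col-0 libraries had 41, 29 and 62 counts with glucose and 79, 45 and 83 counts with sucrose, against 45, 34 and 45 counts in mock libraries. The lowest value stood in atm1-1 glucose library 1. In CPM, the atm1-1 sucrose libraries of AT3G04770 (5.18, 4.51 and 6.28) all lay above its atm1-1 mock libraries (3.69, 4.25 and 3.68). Its other sugar libraries overlapped the mock libraries of their genotype. Of all genes, 11.4% lay wholly above mock for sucrose in atm1-1. AT2G40010 had 62, 5 and 54 counts in atm1-1 glucose libraries and 49, 46 and 51 counts in atm1-1 sucrose libraries, against 82, 42 and 52 counts in atm1-1 mock libraries. In Col-0 this P0 gene had 66, 40 and 52 counts with glucose and 48, 59 and 74 counts with sucrose, against 54, 32 and 77 counts in mock libraries, so the 5 counts of atm1-1 glucose library 2 were the lowest of all 18 libraries. At such counts the standard error of a log2 fold change, for glucose in Col-0, was up to 0.494, next to a median of 0.152 over the members, and the fourth gene under 10 CPM, AT2G42740 (RPL16A) of the L11 family, had 58 to 229 counts.

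Summed over all paralogs, the 33 families were closer to each other than single genes were. Their summed means ran from 179 CPM for L28 to 777 CPM for L18, with a median of 304 CPM. The L4 and S6 families, which come up below, summed to 346 and 320.4 CPM. Of the 44 members, 27 were the most abundant copy of their family, and 26 took over 50% of its counts. Another 5 took under 10%. The largest share was that of AT5G20290 in the S8 family, at 99.8%, and the smallest that of AT2G40010 in the P0 family, at 0.696% on average.

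Several members are known from mutants. AT1G22780 (PFL), whose loss gives pointed first leaves, encodes S18 and had 79.0 CPM on average and 20.3% of its family's counts. AT4G00100 (RPS13A), with a like mutant, had 210.4 CPM on average and 66.9% of S13. AT3G53020 (STV1), an L24 gene needed for reinitiation on mRNAs with upstream reading frames and for gynoecium pattern, had 129.9 CPM on average and 66.1% of L24. AT1G14320 (SAC52), an L10 gene found as a suppressor of a dwarf mutant, had 229 CPM on average and 41.4% of L10. PFL was thus a minor copy of its family, and RPS13A and STV1 were main copies. AT2G18020 (EMB2296), an embryo-essential L8 gene, had 191 CPM on average and 83.7% of L8, and AT1G43170 (RP1), of the L3 protein next to the catalytic centre, 277 CPM on average and 92.5% of L3. Both dominated their families.

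Other members of the large subunit were AT2G34480 of L18a (274 CPM on average), AT1G70600 of L27a (211 CPM), AT2G01250 of L7 (165 CPM), AT2G19730 of L28 (137 CPM), AT3G49010 (BBC1) of L13 (137 CPM) and AT1G33120 of L9 (116 CPM). All but AT1G33120 led their families, with 59.5% to 89.9% of counts, whereas it took 27.8%. In the small subunit, AT3G61110 (RS27A), of a zinc-binding protein, had 238 CPM on average and 68.4% of S27, and AT1G07770 (RPS15A) 212 CPM on average and 50.9% of S15a. None of the 14 genes in this and the preceding paragraph passed the test of the main edgeR fit with all 18 libraries in any comparison. Their averaged log2 fold changes with sugar ran from -0.18 for AT2G18020 to 0.24 for AT1G33120. Under library size scaling, an alternative given at the end, AT1G33120 and AT1G70600 were called in the averaged sugar comparison.

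Together the 44 genes took 0.660% to 0.865% of all counts of a library, and the whole catalogue took 2.40% to 3.10%. In atm1-1 the members took 0.764% ± 0.0535 with glucose and 0.840% ± 0.0219 with sucrose, against 0.790% ± 0.0357 in mock seedlings (SD, n = 3 each). In Col-0 they took 0.829% ± 0.0312 with glucose and 0.815% ± 0.00585 with sucrose, against 0.720% ± 0.0751 in mock seedlings (SD, n = 3 each). The Col-0 mock group was the widest. Its libraries 1 and 2 held 0.697% and 0.660%, while its library 3 at 0.804% lay within the range of the Col-0 glucose libraries. After scaling, the median member stood -0.24 on the log2 scale from its 18-library mean in Col-0 mock library 2 and -0.12 in library 1, and between -0.092 and 0.16 in the other 16 libraries.

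**Figure D2:**
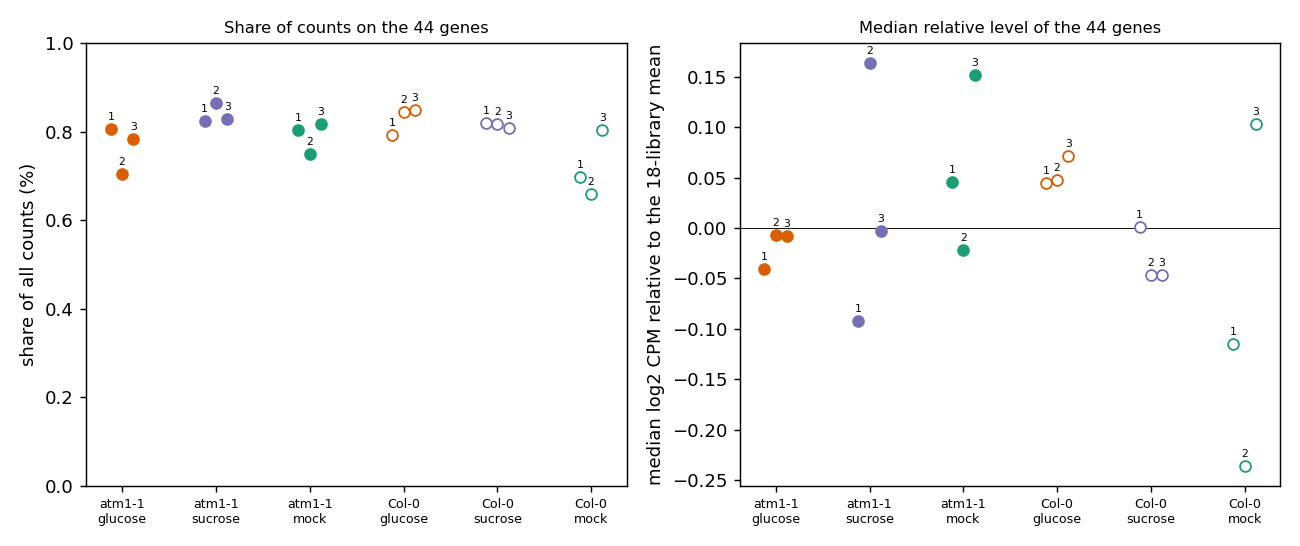
Left, percent of all counts of a library on the 44 genes, and right, their median log2 CPM relative to each gene's mean over 18 libraries, with points numbered by library within its group. Col-0 mock libraries 1 and 2 sit lowest in the right panel, at -0.12 and -0.24.

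Members varied together to a small extent. Across the 18 libraries, the mean correlation over pairs of members (Pearson's r of log2(CPM + 1)) was 0.229, next to 0.173 for the other 170 catalogue genes, 0.353 for 37 plastid ribosomal protein genes and 0.000732 for all genes tested. After subtraction of the group means it was 0.222 for the members. All pairs share the same libraries and their scaling, and low genes carry more counting noise.

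The first question was whether sugar changed these genes within a genotype. A gene was called at q ≤ 0.1, q being the p-value of edgeR's quasi-likelihood test adjusted over all genes by the Benjamini-Hochberg method. In none of the 4 comparisons of a sugar with mock was a member called. Over all genes, 2.92% were called for glucose and 5.23% for sucrose in atm1-1, and 0.554% for glucose and 2.14% for sucrose in Col-0. At an unadjusted p under 0.05, 4 and 2 members stood for glucose and sucrose in atm1-1, and 2 and 3 in Col-0. The share of all genes at that level was 13.7% and 14.6% in atm1-1 and 6.07% and 13.2% in Col-0, and in each the members' share was lower. Without atm1-1 glucose library 2, 0 members stood at that level for glucose in atm1-1, and 393 genes were called at q ≤ 0.1. Without Col-0 sucrose library 3, 0 members stood at it for sucrose in Col-0, and 135 genes were called. DESeq2 and limma voom also called no member in any of the 4. A single library decided the count for glucose in atm1-1. Without atm1-1 glucose library 1 it was 6 of 44, with AT3G07110 and AT5G02870 higher and AT2G18020, AT2G39460, AT5G15200 and AT5G20290 lower, while 2105 genes of the whole table were called instead of 575.

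In atm1-1 seedlings with glucose, 13 of 44 members had a positive log2 fold change against mock, with a median of -0.10, and with sucrose 18 of 44, with a median of -0.036. The sucrose median turned to 0.026 without atm1-1 sucrose library 1 and was -0.12 without library 2, and the glucose median was -0.034 without atm1-1 mock library 3. In Col-0, 40 of 44 were positive with glucose, with a median of 0.18, and 26 of 44 with sucrose, with a median of 0.028. The medians of all genes tested lay between -0.010 and 0.010. The other catalogue genes had medians of -0.089 and -0.060 in atm1-1 and 0.10 and 0.012 in Col-0, for glucose and sucrose in that order. The Col-0 glucose median varied with the mock libraries left out. It was 0.12 without Col-0 mock library 1, 0.065 without library 2 and 0.28 without library 3. Genes of one pathway in the same libraries move together, so the count of positive members is not 44 separate observations.

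The data bound the size of any change. The approximate 95% interval of the fold change lay within 1.5-fold in both directions for 30 and 34 members for glucose and sucrose in atm1-1, and for 36 and 31 in Col-0. It lay within 2-fold for 40 to 43 of the 44. The lowest q-value in each genotype belonged to AT2G39460 (RPL23AA), a protein at the exit of the nascent chain, with a log2 fold change of -0.36 ± 0.154 (SE, n = 3 each) for glucose in atm1-1, and AT3G09630 of the L4 family, with 0.43 ± 0.164 for sucrose in Col-0. Their q-values from edgeR were 0.285 and 0.232. AT2G39460 had 168, 118 and 156 CPM in atm1-1 glucose libraries, with library 2 the lowest. AT3G09630 had 108, 118 and 147 CPM in Col-0 sucrose libraries, with library 3 the highest.

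**Figure D3:**
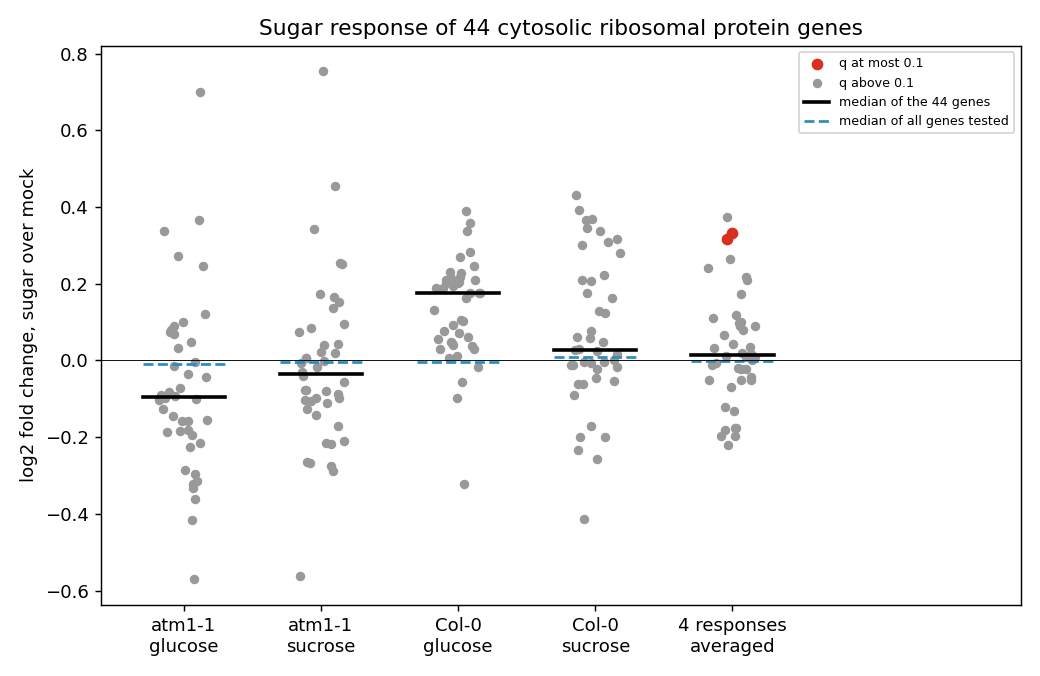
Log2 fold change of sugar over mock of each of the 44 genes in 4 comparisons and in their average, with the members' median (black) and the median of all genes tested (dashed). The 2 genes at q ≤ 0.1 (red) appear in the average alone, and the members' median stands at 0.18 for glucose in Col-0 and -0.10 for glucose in atm1-1.

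Averaging the 4 sugar responses gave the most precise test, with a median SE of 0.0932 over the members on the log2 scale. Here AT3G07110 of the L13a family and AT5G02870 of the L4 family rose with sugar, and no member fell. This is 2 of 44 members, next to 11.7% of all genes called in either direction and 5.94% called as higher, so the members' share did not exceed the background. The members' median was 0.013 and that of all genes -0.0026. The 95% interval lay within 1.5-fold for 42 of 44 members. In the other catalogue genes 2 were higher and 1 was lower of 170, and of 37 plastid ribosomal protein genes, which encode the bacterial-type ribosome of chloroplasts, 1 was higher and 8 were lower, with a median of -0.20.

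AT3G07110 encodes L13a, a protein on the outer face of the large subunit, and its promoter is the first of those shown above. AT3G07110 had 89.7, 143 and 103 CPM in atm1-1 glucose libraries and 108, 114 and 114 CPM in atm1-1 sucrose libraries, against 84.7, 89.4 and 91.2 CPM in atm1-1 mock libraries. The 9 Col-0 libraries had 95.5, 98.7 and 98.3 CPM with glucose and 87.2, 90.2 and 119.9 CPM with sucrose, against 72.9, 76.8 and 90.6 CPM in mock libraries. In Col-0 every glucose library lay above every mock library, and in atm1-1 every sucrose library did, while the other 2 comparisons overlapped. Of all genes, 6.78% and 11.4% lay wholly above mock in those comparisons. Its log2 fold change in the average was 0.32 ± 0.0996 (SE), with q = 0.0482 from edgeR. The single comparisons gave 0.34 and 0.34 in atm1-1 and 0.28 and 0.31 in Col-0, for glucose and sucrose in that order. The call was lost without Col-0 mock library 1 and without atm1-1 mock library 1, and the q-values from edgeR over the 18 left-out libraries ran from 0.0136 to 0.155. Without atm1-1 glucose library 2, its highest library, it was 0.26 with q = 0.0473.

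AT5G02870 encodes L4, which lines the tunnel through which the new protein leaves the ribosome. AT5G02870 had 186, 380.5 and 266 CPM in atm1-1 glucose libraries and 251, 281 and 238 CPM in atm1-1 sucrose libraries, against 217, 191 and 238 CPM in atm1-1 mock libraries. Col-0 seedlings had 233, 278 and 206 CPM with glucose and 211, 240.5 and 281 CPM with sucrose, against 168, 187 and 213 CPM in mock libraries. Sugar and mock libraries overlapped in both genotypes, apart from atm1-1 sucrose libraries, which all lay above the atm1-1 mock libraries, although the lowest of them exceeded the highest mock library by less than 1 CPM. The averaged log2 fold change was 0.33 ± 0.117 (SE), with q = 0.0847 from edgeR. This call held in 7 of 18 fits that left out 1 library, with q-values from 0.0103 to 0.232. Without atm1-1 glucose library 2 the value was 0.26, with q = 0.0924. Its paralog AT3G09630 moved by 0.22 ± 0.101 and did not pass the test (q = 0.209).

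**Figure D4:**
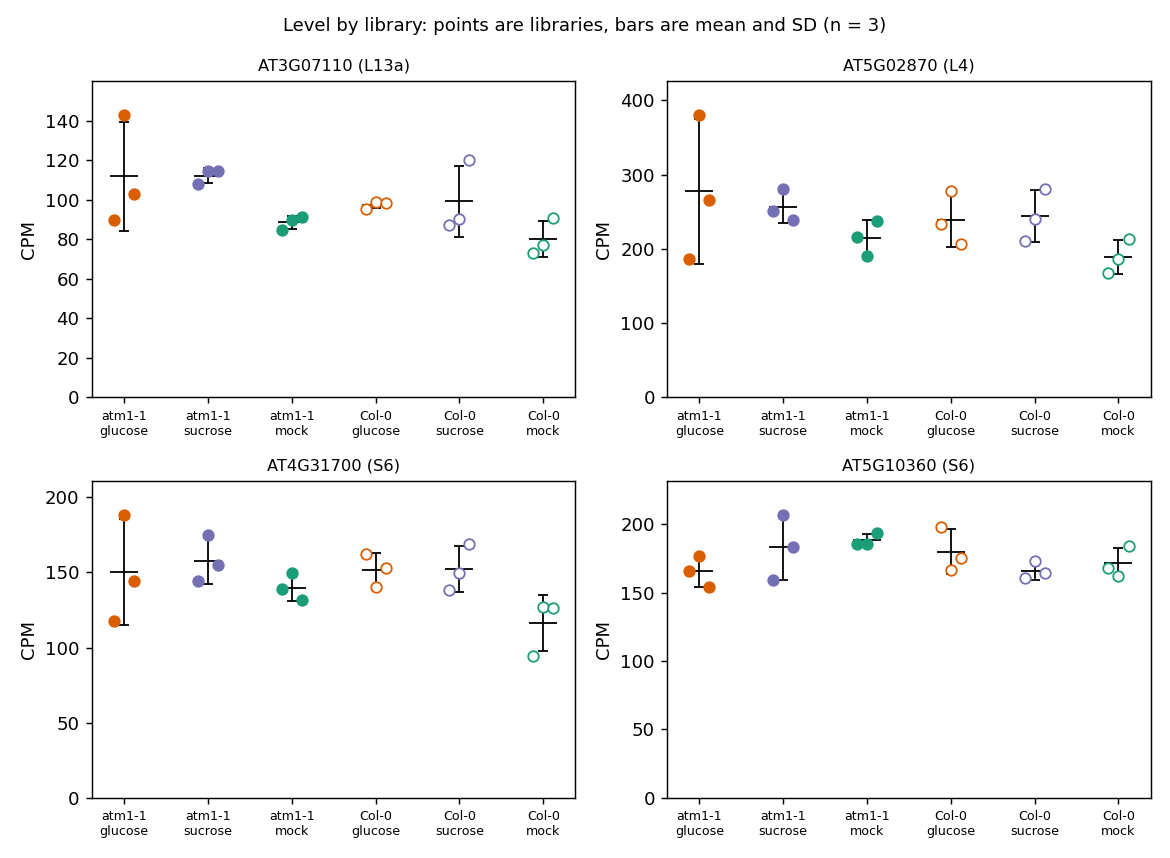
CPM of 4 genes in every library (points), with the mean and SD of 3 libraries (bars). For AT3G07110 the 3 atm1-1 sucrose libraries lie between 108 and 114 CPM, above the atm1-1 mock libraries, and the highest point of AT3G07110, AT5G02870 and AT4G31700 is atm1-1 glucose library 2.

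Ribosomal protein S6 is the small subunit protein that S6 kinase phosphorylates, and both its genes are members. AT4G31700 (RPS6) averaged 150.1 ± 35.4 CPM with glucose and 158 ± 15.6 CPM with sucrose in atm1-1, against 140.0 ± 9.30 CPM in mock seedlings (SD, n = 3 each). In Col-0 the means were 152 ± 10.8 CPM and 152 ± 15.4 CPM with glucose and with sucrose, against 116 ± 18.7 CPM in mock seedlings. The averaged response was 0.26 ± 0.0997 on the log2 scale, with q = 0.109 from edgeR, just outside the threshold. DESeq2 gave q = 0.0693 and limma voom q = 0.0961 for it. With edgeR it was called in 3 of 18 fits that left out 1 library, with q-values from 0.0318 to 0.338. Without atm1-1 glucose library 2, its highest library, the value was 0.22 with q = 0.126 from edgeR. The other gene, AT5G10360 (EMB3010), stood at -0.051 ± 0.0809, with q = 0.773.

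At the lower end of the averaged response were genes that did not pass the test. AT5G41520 (RPS10B), of a small subunit protein near the mRNA entry, had -0.22 ± 0.127 (SE) and q = 0.334. AT5G41520 had 210.1, 131 and 162 CPM in atm1-1 glucose libraries and 129.7, 177 and 189 CPM in atm1-1 sucrose libraries, against 186, 161 and 228 CPM in atm1-1 mock libraries. Its values in Col-0 were 153, 225 and 181 CPM with glucose and 184, 145 and 108 CPM with sucrose, against 227, 151 and 203 CPM in mock libraries. Sugar and mock libraries overlapped in all 4 comparisons. AT5G15200, the main S9 gene, had -0.20 ± 0.0924 and q = 0.211. AT5G15200 had 406, 282 and 363 CPM in atm1-1 glucose libraries and 326, 395 and 379.8 CPM in atm1-1 sucrose libraries, against 421, 442 and 459 CPM in atm1-1 mock libraries. No sugar library of atm1-1 reached its lowest mock library. Of all genes, 7.72% lay wholly below mock with glucose and 12.1% with sucrose in atm1-1. The Col-0 libraries had 387, 417 and 382 CPM with glucose and 379.6, 358 and 292 CPM with sucrose, against 405, 329 and 448 CPM in mock libraries, with overlapping ranges. The minor genes AT2G40010, at -0.20 ± 0.281, and AT5G39850, at 0.37 ± 0.298, had the widest errors and q-values of 0.741 and 0.512.

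Marker genes moved in the same averaged comparison. The 4 photosynthetic genes summed to 14181 to 20709 CPM in sugar libraries and 19257 to 23875 CPM in mock libraries, and RBCS1A, RBCS3B and RCA of them fell. The 5 measured root genes summed to 152 to 301 CPM in sugar libraries and 177 to 249 CPM in mock libraries, of which PRP3 rose. The root meristem genes PLT1 and PLT2 are not in these sums, and their counts were 0 to 18 per group of 3 libraries. The 5 genes of dividing cells summed to 22.3 to 35.1 CPM in sugar libraries and 17.7 to 23.9 CPM in mock libraries, of which SYP111 (KNOLLE) rose. The part of these shifts in the members' values was not tested.

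Among catalogue genes outside the 44, 3 were called in the average. They were AT1G58380 (XW6) of the S2 family, which rose by 0.69 ± 0.170 (q = 0.0114), AT3G28500 of the P2 family, at 1.73 ± 0.611 (q = 0.0829) and a mean of only 0.675 CPM, and AT4G33865 of the S29 family, which fell, with -0.33 ± 0.107 (q = 0.0582). Of those whose log2 CPM averaged 1 or more, AT2G44120 of the L7 family and AT1G29965 of the L18a family had 0.47 and 0.44, and AT4G30800 of the S11 family and AT5G62300 of the S20 family -0.39 and -0.33, none of them past the threshold. The S2 family has near-identical copies, and AT1G58684, AT1G58983 and AT1G59359 were listed with 1, 0 and 0 counts in total, so the value of AT1G58380 depends on how the authors' counting divided shared reads.

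The second question was whether atm1-1 differed from Col-0. No member was called in mock, glucose or sucrose seedlings, next to 0.158%, 0.0508% and 0.0457% of all genes. At an unadjusted p under 0.05 there were 2, 0 and 0 members, next to 5.51%, 6.48% and 4.62% of all genes, and DESeq2 and limma voom called none. In mock seedlings 39 of 44 members had a positive log2 fold change of atm1-1 over Col-0, with a median of 0.15, and this median too varied with the Col-0 mock libraries. It was 0.14 without library 1, 0.080 without library 2 and 0.26 without library 3. With glucose 10 of 44 were positive (median -0.079) and with sucrose 30 of 44 (median 0.050). The sucrose median was 0.10 without atm1-1 sucrose library 1 and turned to -0.020 without library 2. The member with the lowest q-value in mock seedlings was AT3G48930 (EMB1080) of the S11 family, with 205 ± 11.9 CPM in atm1-1 and 163 ± 19.1 CPM in Col-0 (SD, n = 3 each) and q = 0.791 from edgeR.

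Differences between the genotypes in their sugar response were tested as interactions. No member and no other gene was called for glucose (0% of all genes) or for sucrose (0%), and 2 members and 1 member had an unadjusted p under 0.05, next to 3.81% and 2.84% of all genes. DESeq2 called 8 and 5 genes of the whole table and limma voom none, and neither called a member. The members' median difference, atm1-1 minus Col-0, was -0.25 for glucose and -0.078 for sucrose, next to 0.0031 and -0.010 for all genes. The glucose value includes the low Col-0 mock libraries and was -0.15 without Col-0 mock library 2. Here the precision was lower, since the 95% interval lay within 1.5-fold for 13 and 27 members.

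Because paralogs of one family encode versions of the same ribosomal protein, the share of each paralog was examined as well. A share is the percent of the family's counts on its most abundant paralog and does not depend on the scaling of a library. Of the 80 families, 78 had 2 or more measured paralogs and could be tested, all 33 of the members among them. A pair of libraries stood apart. The highest or lowest share of 18 libraries was found in atm1-1 glucose library 2 for 41 families and in Col-0 sucrose library 3 for 36 families, and in no other library for more than 17. Of the members' families these were 13 and 12 of 33. The cause was not tested.

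Main copies were close to fixed in some families and balanced in others. In the P0 family AT3G09200 held 94.3% of counts over the 18 libraries, AT3G11250 5.04% and AT2G40010 0.696%. AT3G09200 and AT3G11250 share 96.0% of residues, and AT2G40010 and AT3G09200 share 81.7%. In the S9 family AT5G15200 held 99.2%, and in the Sa family AT1G72370 (P40) held 98.5%. The P40 protein and that of its minor copy AT3G04770 differ most among pairs of members in one family, with 57.6% identity. RPS5A (AT3G11940), a gene active in dividing cells, held 82.2% of S5 counts against RPS5B (AT2G37270), at 94.7% identity.

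More even were L5, which carries 5S rRNA into the ribosome, with AT3G25520 (ATL5) at 57.5% and AT5G39740 (RPL5B) at 42.5%, and L10a, a protein of the mobile L1 stalk, with AT2G27530 (PGY1, a leaf polarity gene) at 52.3% and AT1G08360 at 42.3%. These pairs had 97.7% and 96.3% identical residues. AT4G34670 held 58.1% of S3a counts over AT3G04840 (94.3% identity), AT5G02870 held 68.2% of L4 counts over AT3G09630 (95.1%), and AT5G03850 held 66.9% of S28 counts over AT5G64140 (RPS28, 96.9%) and 1 more copy. No run of 50 bases, the length of a read, in the last 300 bases of any member's transcript was found in a paralog of its family, so reads there can be told apart by sequence. In the whole catalogue, 5 of 231 genes shared such a run.

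No family passed the threshold for sugar against mock or for atm1-1 against Col-0 (0 of 78 in each two-sided exact permutation test at q ≤ 0.1). By unadjusted exact p, 13 families lay under 0.05 for sugar and 6 for genotype. The median size of the change was 1.57 percentage points for sugar and 1.24 for genotype. The smallest p of the sugar test belonged to S6, whose leading paralog AT5G10360 took 53.2% in 12 sugar libraries and 58.6% in 6 mock libraries, a difference of -5.36 points (exact permutation p = 0.00142, q = 0.111). Its shares were 58.4, 48.5 and 51.6% with glucose and 52.5, 54.2 and 54.3% with sucrose in atm1-1, against 57.2, 55.4 and 59.6% in mock libraries. In Col-0 they were 55.0, 54.3 and 53.3% with glucose and 53.7, 53.7 and 49.3% with sucrose, against 64.0, 56.1 and 59.2% in mock libraries. In Col-0 every sugar library lay below every mock library, and in atm1-1 only glucose library 1 lay within the range of the mock libraries. Without atm1-1 glucose library 2 the difference was -4.89 points and passed the threshold (q = 0.0829, exact permutation), as it did without Col-0 mock library 3, Col-0 glucose library 3, atm1-1 mock library 2 or atm1-1 glucose library 1.

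The largest changes of share with sugar were in L13a, S6 and P2. In L13a the leading paralog AT3G24830 took 41.3% with sugar and 46.98% in mock libraries (exact permutation p = 0.0120, q = 0.144). Its member AT3G07110, the gene that rose above, shares 91.3% of residues with it and held 35.97% on average. In CPM, AT3G24830 had an averaged log2 fold change of -0.16 ± 0.102 (q = 0.404), and the remaining copies AT4G13170 and AT5G48760 had -0.085 and 0.035. In P2, an acidic stalk protein with no member here, AT2G27710 took 55.2% with sugar and 50.0% in mock libraries (q = 0.167, exact permutation). RPS5A took 81.5% with sugar and 83.5% in mock libraries, a small difference of -1.93 points (exact permutation p = 0.0109, q = 0.144).

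Between genotypes the largest changes of share were in S20, P3 and L35a, none with a member among the 44. Their leading paralogs AT5G62300, AT4G25890 and AT1G74270 took 32.2%, 79.3% and 41.8% in atm1-1 and 36.99%, 74.5% and 37.8% in Col-0 (exact permutation q = 0.437, 0.224 and 0.437). In each of the 3 families the extreme value was that of atm1-1 glucose library 2, at 17.5%, 91.4% and 52.2%. Without that library the differences were -3.17, 3.25 and 2.91 points. Of the families with 2 or more members, S3a differed most, with AT4G34670 at 60.01% in atm1-1 and 56.2% in Col-0 (q = 0.437, exact permutation), and 2.06 points of difference were left without the same library, which stood at 72.5%.

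**Figure D5:**
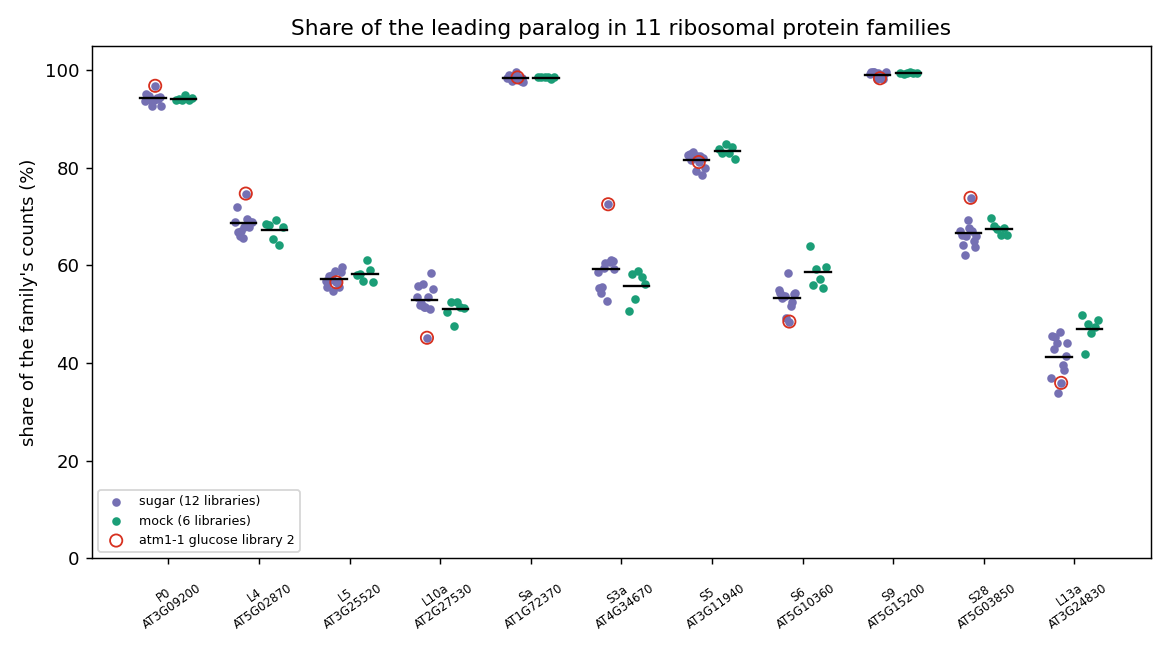
Percent of a family's counts on its leading paralog (named under each family) in 12 sugar libraries and 6 mock libraries, each point a library and each bar a mean. The S6 share averages 53.2% with sugar and 58.6% in mock libraries, and the circled atm1-1 glucose library 2 is the extreme of S3a at 72.5%.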

How the data were processed

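RNA of 18 seedling libraries was sequenced as QuantSeq 3′ reads of 50 bases. The authors deposited a table of raw counts per gene, made with STAR and HTSeq on TAIR10 per the labels. How shared reads were treated is not given in the sources used here. A deposited table of scaled values of the same genes and libraries was not used. The study tested its counts with PoissonSeq, which is not used here.

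Counts were fitted with edgeR 4.0.16 in R 4.3.3 (TMM factors, filterByExpr by group, quasi-likelihood test over 6 groups) and p-values were adjusted over all 19679 genes within each comparison. Calls used q ≤ 0.1, the study's threshold. CPM are scaled by TMM-adjusted library sizes. Paralog shares were compared with two-sided exact permutation tests within genotype or within treatment, adjusted over 78 families. Where separate cultures are not stated, p-values measure the spread between these libraries. The fit was tested on simulated data.

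The 44 members, the catalogue and the marker lists were chosen with earlier results of these data known. Values per library are given for the 3 highest and 3 lowest members, the called members and the 3 largest and 3 smallest averaged responses. The families described are those with 2 or more members and the 3 with the largest change of share in each test. Catalogue genes that are no members are named by the 3 largest and 3 smallest averaged responses, leaving out those whose log2 CPM averaged under 1. Alternatives were RLE factors, library size scaling, other filters, DESeq2 1.42.0, limma voom 3.58.1, q ≤ 0.05, a replicate block, only the groups compared and leaving out each library. Coordinates and names come from TAIR10.1, and no coordinate was taken from the counting.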

Additional observations from a re-analysis of the deposited data

How the results depend on the processing

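Replicate numbers did not pair the libraries (45 same-numbered pairs had correlations of deviations from -0.148 to 0.275, 3 of them over 0.1). With the replicate block, 3 members were called in the averaged sugar comparison, the main 2 and AT4G31700, next to 2155 genes of the whole table, and 0 members elsewhere. Under library size scaling the median of all genes was 0.14 for sucrose in atm1-1 and 0.15 for sucrose in Col-0, and the members' medians were 0.10 and 0.17, close to it. It called 2 members for sucrose in Col-0 (AT3G09630 and AT4G31700), 1 for sucrose in atm1-1 (AT3G07110) and 7 in the average, next to 547, 1069 and 2470 genes of the whole table. Those 7 were AT1G33120, AT1G70600, AT3G07110, AT3G09630, AT4G31700, AT4G34670 and AT5G02870. With only the groups compared, 1 member was called for sucrose in atm1-1, next to 1806 genes of the whole table. At q ≤ 0.05, 1 was called in the average, next to 1579 genes. Leaving out 1 library at a time, the calls in the average ran from 0 to 6 and those for glucose in atm1-1 from 0 to 6. Both were highest without atm1-1 glucose library 1, where 3418 and 2105 genes of the whole table were called. The members' median ran from 0.065 to 0.28 for glucose in Col-0, from -0.057 to 0.15 for sucrose in Col-0, from 0.080 to 0.26 for atm1-1 over Col-0 in mock seedlings and from -0.31 to -0.15 for the difference of the glucose responses. For sucrose it ran from -0.12 to 0.026 in atm1-1, from -0.020 to 0.10 for atm1-1 over Col-0 and from -0.17 to -0.0040 for the difference of the responses, and in the average from -0.014 to 0.060. The families called by share ran from 0 to 7 for sugar and from 0 to 3 for genotype, both highest without atm1-1 glucose library 1. With the 20 genes of most counts left out of the total, the members' share of counts was 0.970% with glucose, 1.05% with sucrose and 1.02% in mock seedlings of atm1-1, and 1.04%, 1.01% and 0.925% in Col-0. RLE factors, the other filters, DESeq2 and limma voom left the calls at 0 in the 9 comparisons other than the average and at 2 or 3 there. In the average these settings called 2153 to 2760 genes of the whole table. The causes were not tested. Depth limits 4 members under 10 CPM, whose errors are the widest.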
